A study of Mus musculus with 9 samples.

Results

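Versican, its hyalectan relatives, the link proteins and the hyaluronan synthases were followed as 10 genes across 3 sorted cell populations of neonatal mouse back skin. The genes were Vcan, Acan, Bcan and Ncan (hyalectans), Hapln1, Hapln3 and Hapln4 (link proteins), and Has1, Has2 and Has3 (synthases). They were taken by platform gene symbol, which gave 24 of 45101 probe sets and 10 of 18193 genes. Each gene was represented by its brightest probe set, judged by the mean of all 9 arrays. R3 was the GFP+CD133+ gate, labelled as dermal papillae of guard, awl and auchene hairs. R2 was the GFP-CD133+ gate, labelled as papillae of zigzag hairs. R1 was the GFP-CD133- gate, dermal cells without papillae. All 3 gates came from the same 3 mice (numbers 2, 4 and 5) at postnatal day 2, with 1 array per mouse and gate and about 50000 cells per population. The sources used here give neither strain nor sex. CD133 is the product of Prom1. The labels do not name what drives the GFP; a Sox2 reporter is known from published work of this kind. The labels name the gates by GFP and CD133 and by no other marker.

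Hyaluronan is a long unbranched sugar polymer that synthases in the plasma membrane extrude into the matrix. Hyalectans are large chondroitin sulfate proteoglycans whose amino-terminal end grips hyaluronan and whose carboxy-terminal lectin domain binds partners such as tenascins and fibulins. Link proteins clamp the proteoglycan to the polymer, so that the aggregate holds water. Versican is a classical component of dermal papilla matrix in growing hair follicles. Aggrecan and Hapln1 are best known from cartilage, and brevican, neurocan and Hapln4 from brain. Each hyalectan gene of the mouse lies beside a link protein gene. RefSeq lists 0 protein-coding genes that start between Vcan and Hapln1, between Acan and Hapln3, between Bcan and Hapln2, or between Ncan and Hapln4.

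The promoters of the pairs Vcan with Hapln1 and Acan with Hapln3 are shown because these 4 genes gave most of the differences described further on. They are RefSeq windows on GRCm38.p6, from 250 bases before to 50 after a transcript start, printed 5′ to 3′ on the strand of the gene. Capitals mark GGGCGG (the GC box read by Sp factors) and TATAAA (the TATA box) on either strand. CTTTGT, a core read by Tcf/Lef factors whose other strand (ACAAAG) is read by Sox factors, was searched too and had 0 matches in these windows. The Vcan window is chr13:89742463-89742762 (minus strand) and that of Hapln1 chr13:89540386-89540685 (plus strand). The Acan window is chr7:79052976-79053275 (plus strand) and that of Hapln3 chr7:79130969-79131268 (minus strand).
Vcan: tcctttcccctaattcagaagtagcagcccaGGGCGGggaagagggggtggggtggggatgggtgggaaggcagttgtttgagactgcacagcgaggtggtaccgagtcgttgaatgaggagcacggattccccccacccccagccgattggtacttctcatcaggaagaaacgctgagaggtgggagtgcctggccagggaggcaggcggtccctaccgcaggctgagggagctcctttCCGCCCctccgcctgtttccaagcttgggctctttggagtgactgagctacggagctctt
Hapln1: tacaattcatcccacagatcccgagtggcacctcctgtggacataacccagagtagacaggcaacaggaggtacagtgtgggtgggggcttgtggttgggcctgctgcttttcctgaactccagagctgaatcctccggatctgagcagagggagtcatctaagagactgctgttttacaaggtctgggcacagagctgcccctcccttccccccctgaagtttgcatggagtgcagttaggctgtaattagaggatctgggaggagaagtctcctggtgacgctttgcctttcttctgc
Acan: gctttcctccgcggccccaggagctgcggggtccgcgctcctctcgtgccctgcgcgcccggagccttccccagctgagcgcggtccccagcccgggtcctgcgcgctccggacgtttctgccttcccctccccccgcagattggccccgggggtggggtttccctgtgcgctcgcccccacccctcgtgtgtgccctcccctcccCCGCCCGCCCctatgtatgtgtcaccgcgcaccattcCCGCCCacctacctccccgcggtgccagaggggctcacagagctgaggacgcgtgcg
Hapln3: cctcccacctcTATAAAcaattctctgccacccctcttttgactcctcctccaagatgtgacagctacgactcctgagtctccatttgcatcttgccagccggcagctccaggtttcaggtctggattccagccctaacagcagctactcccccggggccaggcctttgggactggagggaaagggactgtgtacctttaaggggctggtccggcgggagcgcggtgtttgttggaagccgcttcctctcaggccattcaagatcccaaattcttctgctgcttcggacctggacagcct
GGGCGG had 2 matches in the Vcan window, 1 on each strand, and 3 in that of Acan, all on the other strand, of which the first 2 overlap each other. The Hapln3 window held 1 TATAAA, at its base 12, and the Hapln1 window held none of the 3 motifs. An entry was found for 7 of the 10 genes, of which the 4 hyalectans held GGGCGG while Hapln1, Hapln3 and Has1 did not. Among 32851 windows of that length, 35.7% held GGGCGG, 13.6% TATAAA and 18.7% CTTTGT. GC content was 61% for Vcan, 54.3% for Hapln1, 74% for Acan and 57% for Hapln3, against a median of 52.7% over all windows. Hapln4, Has2 and Has3 had no entry. A match describes letters in the window and shows no binding.

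Values are log2 expression values of the arrays, so a difference of 1 is a 2-fold change. Probe sets differ in how brightly they hybridise, so levels were compared between gates and never between genes. Array medians ran from 6.13 to 6.20. As a guide to background, 44 probe sets of olfactory receptor genes had their 95th percentile at 5.14 to 5.46. Exactly equal values occurred in 1.74 to 2.72% of probe sets for every pair of arrays. The beta-actin 3' to 5' difference, a sign of RNA quality, was 0.12 to 0.20 in R3 and 0.11 to 0.22 in R2, against 0.04 to 0.07 in R1. The Gapdh difference of the same kind overlapped between the gates, at 2.68 to 3.02 in R3, 2.57 to 2.85 in R2 and 2.63 to 2.97 in R1. The beta-actin difference moved with every comparison against R1, and its part in those results was not tested. Papilla markers were highest in R3 and lowest in R1: their mean over 18 genes was 9.90 to 10.13 in R3, 9.19 to 9.32 in R2 and 7.77 to 8.10 in R1. Endothelial markers stood apart in R2, with a mean over 14 genes of 5.95 to 6.36 in R3, 8.51 to 8.83 in R2 and 6.66 to 6.99 in R1. Tie1, Emcn and Robo4 were at or under background on all R3 arrays. Schwann and glial markers stood apart in R3, with a mean over 9 genes of 7.88 to 8.13 in R3, 5.24 to 5.57 in R2 and 6.13 to 6.46 in R1. Keratinocyte markers averaged 6.94 to 7.77 in R3 and 7.26 to 7.54 in R2, against 10.31 to 10.92 in R1 (13 genes). Limma called 13 of 13 lower in each CD133+ gate than in R1, so R1 was not free of keratinocyte RNA. Dermal fibroblast markers averaged 10.94 to 11.04 in R3 and 11.30 to 11.43 in R2, against 12.16 to 12.19 in R1 (11 genes). The cartilage collagen genes Col2a1, Col9a1 and Col9a3 separated the R2 arrays from each other. Col9a1 stood at 9.87 and 10.53 in R2 of mice 2 and 4 but at 4.97 in R2 of mouse 5. The calls that use R2 were therefore also made with mouse 5 as the lone R2 array, which is then assumed to vary like the other gates.

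**Figure D1:**
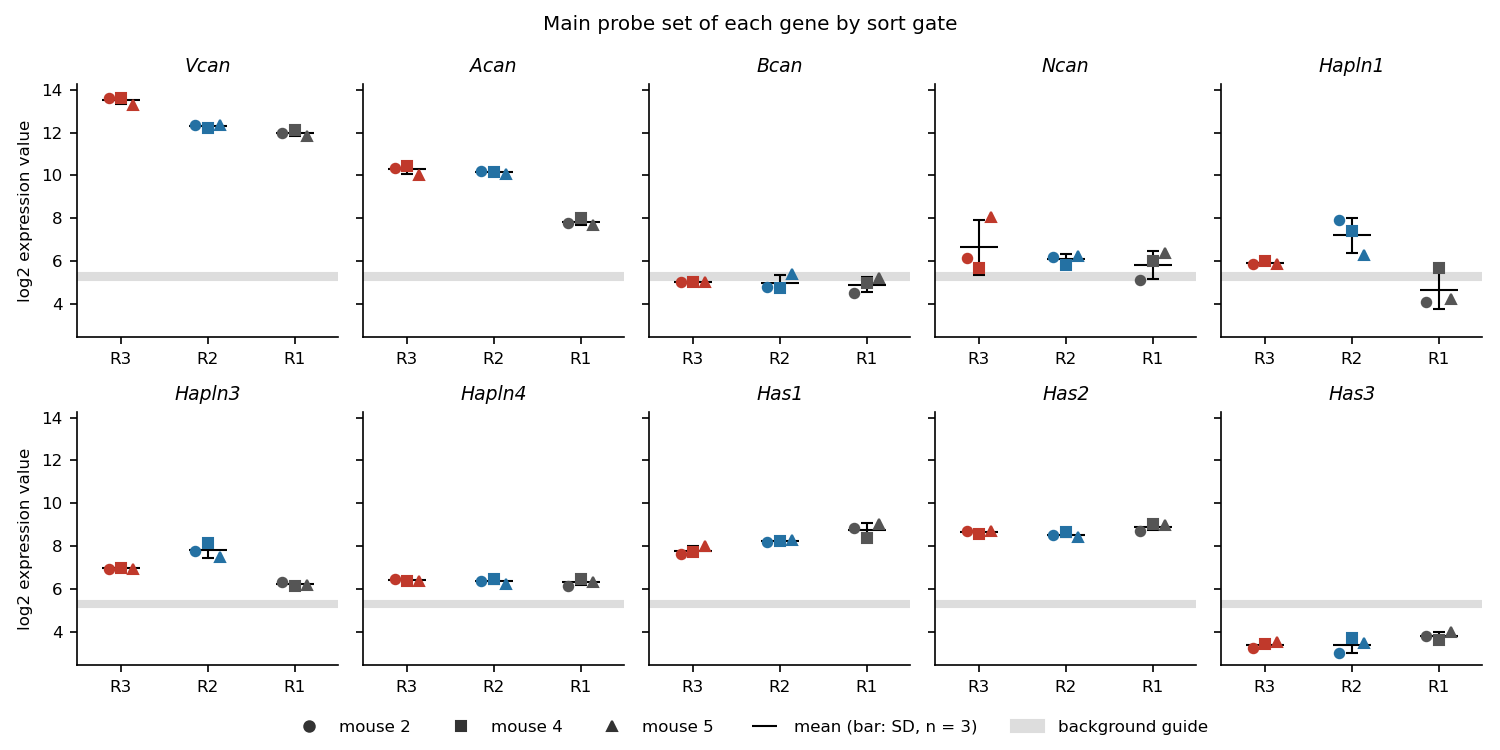
Log2 expression value (vertical axis) of the main probe set of each of the 10 genes on the R3, R2 and R1 arrays; symbols mark the mouse, the horizontal line is the mean and the bar the SD of 3 arrays, and the grey band is the background guide of 5.14 to 5.46. Vcan is highest in R3, Acan is high in both CD133+ gates, Hapln1 and Hapln3 peak in R2, and Bcan and Has3 lie in or under the band on most or all arrays.

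Between the gates, 5 of the 10 genes differed in at least 1 comparison: Vcan, Acan, Hapln1, Hapln3 and Has1. In R3 against R2, 1 gene (Vcan) was higher and 1 (Hapln3) lower, where limma called 5.03% of all 18193 genes (a Benjamini-Hochberg adjusted p under 0.05), 1.97% higher and 3.06% lower. In R2 against R1, 3 genes (Acan, Hapln1 and Hapln3) were higher and 0 lower, where 13.1% of all genes were called, 6.89% higher and 6.16% lower. In R3 against R1, 3 genes (Acan, Vcan and Hapln3) were higher and 1 (Has1) lower, where 18.7% of all genes were called, 7.9% higher and 10.8% lower. Full separation of the arrays of both gates was seen for 4 of the 10 genes in R3 against R2, 6 in R2 against R1 and 6 in R3 against R1. Over all genes this held for 22.7%, 30.8% and 34.4% in the same order. The median log2 change of the 10 genes was 0.06 in R3 against R2, 0.17 in R2 against R1 and 0.45 in R3 against R1. Over all genes the medians were -0.01, -0.02 and -0.01. The 3 comparisons share arrays and are not independent of each other. In sorted bulk RNA, fewer cells of a kind and less RNA per cell cannot be told apart.

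**Figure D2:**
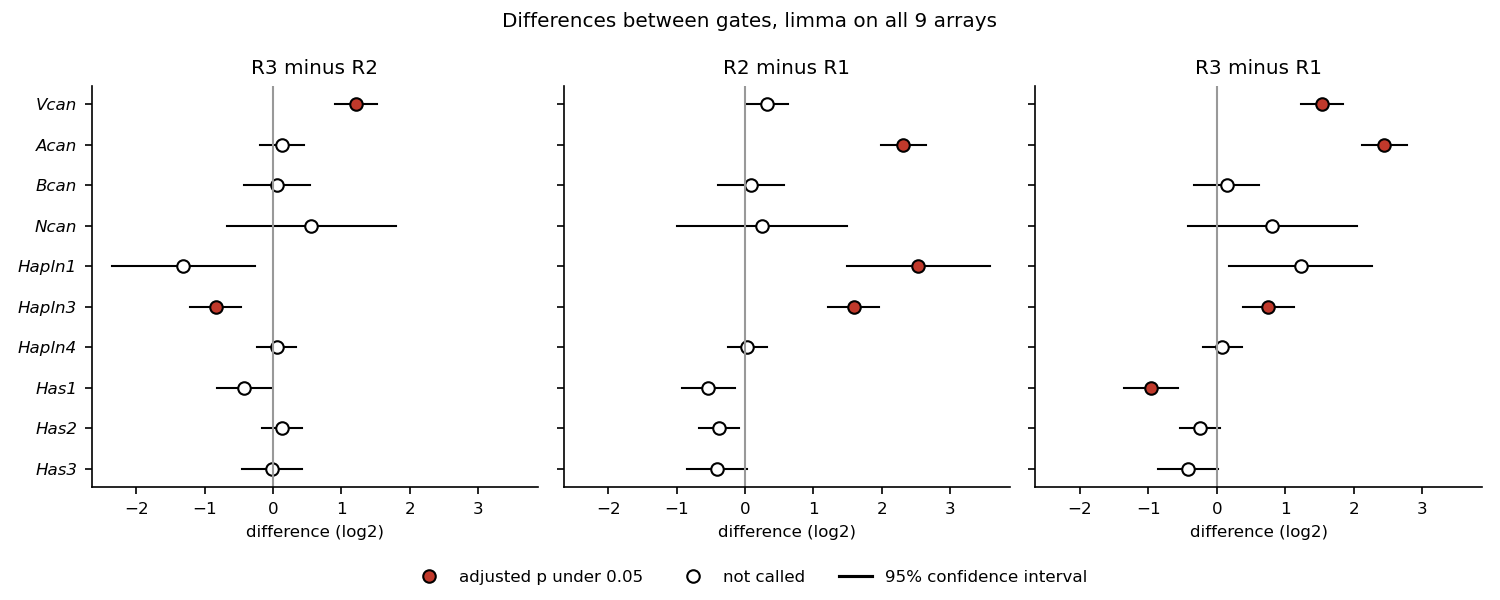
Difference in log2 expression value between gates (horizontal axis) for each gene, in panels for R3 minus R2, R2 minus R1 and R3 minus R1; points are limma estimates, lines their 95% confidence intervals, and filled points have an adjusted p under 0.05. Vcan is filled on the right in R3 minus R2, Acan and both Hapln1 and Hapln3 in R2 minus R1, and Has1 on the left in R3 minus R1.

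Vcan, the versican gene, was highest in the GFP+ papilla gate. Its main probe set read 13.63, 13.63 and 13.30 in R3 of mice 2, 4 and 5. In R2 it read 12.35, 12.23 and 12.34, and in R1 11.99, 12.13 and 11.83. The 3 gates did not overlap. R3 was above R2 in every mouse, by 1.28, 1.40 and 0.96 in mice 2, 4 and 5. The mean was 13.52 ± 0.19 in R3, 12.31 ± 0.07 in R2 and 11.99 ± 0.15 in R1 (SD, n = 3 each). Vcan rose 2.32-fold in R3 over R2 (log2 change 1.21, standard error 0.14, limma adjusted p = 0.000929) and 2.90-fold in R3 over R1 (1.54, standard error 0.14, adjusted p = 8.1e-05). With mouse 5 as the lone R2 array the rise over R2 was 1.18 and missed the threshold (adjusted p = 0.0565, range 8.73e-05 to 1 over the alternatives, the highest with a 2-fold minimum). The step between R2 and R1 was small, 0.32 with a 95% interval of 0.01 to 0.64, and was not called (adjusted p = 0.171). It was called when all Vcan probe sets were averaged (0.38, adjusted p = 0.0469, within 0.0469 to 1 over its alternatives). Beside the higher Vcan in R3 than in R2, 6 of 18 papilla markers and 8 of 9 Schwann and glial markers were called higher. The papilla count dropped to 3 without R2 of mouse 4, R3 of mouse 2 or R3 of mouse 4. Lower calls were made for 14 of 14 endothelial, 4 of 11 dermal fibroblast, 2 of 10 pericyte and smooth muscle and 2 of 5 adipocyte markers. Over all genes, 1.97% were called higher and 3.06% lower. The part of these cell types in the Vcan level was not tested.

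Versican RNA is spliced into isoforms that keep or drop the exons for chondroitin sulfate attachment, and 8 probe sets bear the gene's name. Which exons each reads is not analysed here. With every probe set tested singly, 6 of the 8 were called higher in R3 than in R2. Of the 5 that stood above background on all 9 arrays, 1427257_at, 1427256_at and 1421694_a_at gave log2 changes of 1.21, 1.16 and 1.29 between R3 and R2. These are near-equal steps in the brightest probe sets. The other 2 gave larger ones: 1447887_x_at read 11.40 to 11.62 in R3, 9.75 to 9.93 in R2 and 9.06 to 9.61 in R1, a rise of 1.65 over R2 (adjusted p = 0.000435). 1433043_at read 8.35 to 8.65 in R3, 6.11 to 6.75 in R2 and 5.94 to 6.65 in R1. Its R3 arrays were thus far above both other gates, which overlapped, with a rise of 2.13 over R2 (standard error 0.22, adjusted p = 0.000743) and a difference of 0.02 between R2 and R1. Its neighbour in number, 1433044_at, was above background on 4 arrays, the 3 of R3 and 1 of R2. It read 6.16 to 6.99 in R3, 4.57 to 5.54 in R2 and 3.78 to 4.16 in R1, and was the only one of the 8 called between R2 and R1 (1.08, adjusted p = 0.0388). 1447586_at and 1459767_x_at were under background on all arrays and were not called between R3 and R2, though 1459767_x_at was called in R3 over R1 (0.56, adjusted p = 0.0252). Whether the size of the rise differs between probe sets was not tested.

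**Figure D3:**
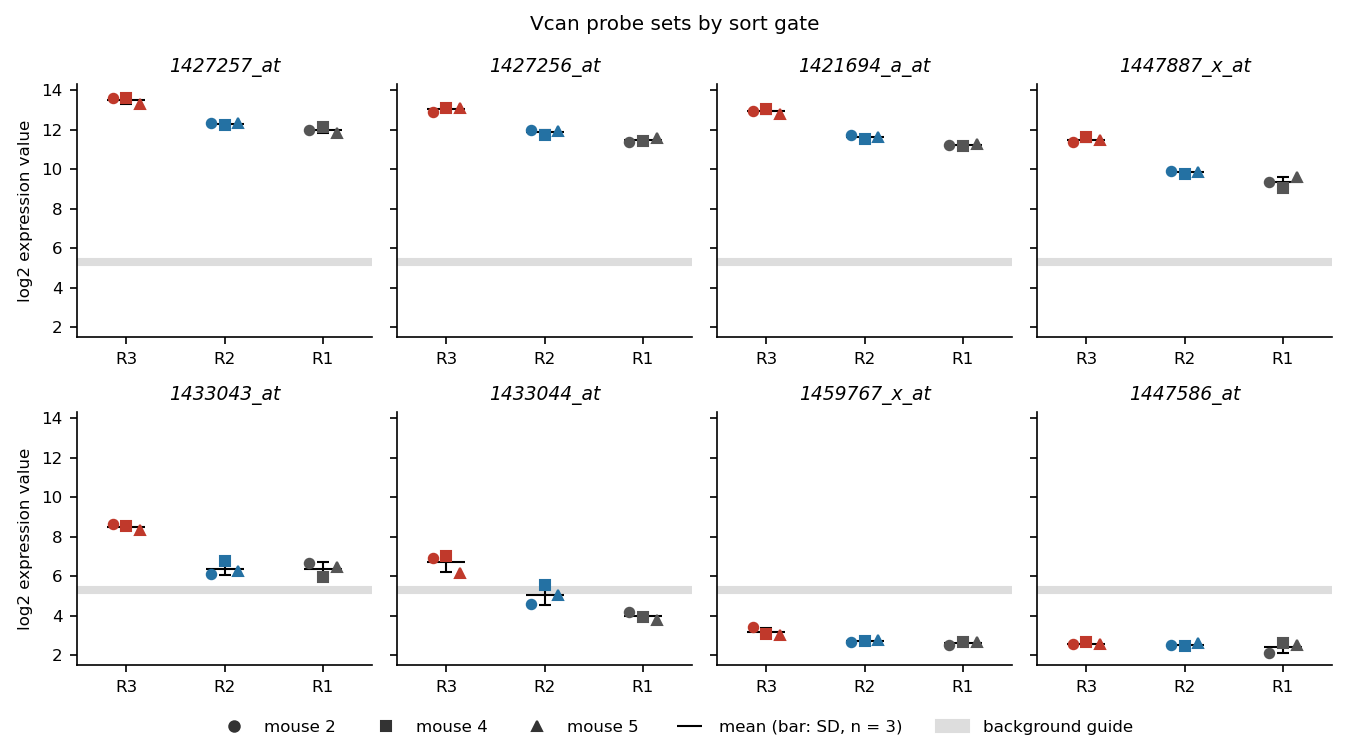
Log2 expression value (vertical axis) of the 8 Vcan probe sets on the R3, R2 and R1 arrays, ordered by brightness; symbols mark the mouse, lines and bars the mean and SD of 3 arrays, and the grey band the background guide. The R3 arrays lie above all R2 and R1 arrays in every panel but that of 1447586_at, which stays under the band like 1459767_x_at.

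Acan, the aggrecan gene, separated both CD133+ gates from R1. It read 10.35, 10.46 and 10.04 in R3 of mice 2, 4 and 5. In R2 it read 10.22, 10.15 and 10.08, and in R1 7.80, 8.00 and 7.70. R3 and R2 overlapped, and both lay above all R1 arrays. The mean was 10.28 ± 0.22 in R3, 10.15 ± 0.07 in R2 and 7.83 ± 0.15 in R1 (SD, n = 3 each). Acan rose 4.98-fold in R2 over R1 (log2 change 2.32, standard error 0.15, adjusted p = 1.79e-05) and 5.46-fold in R3 over R1 (2.45, standard error 0.15, adjusted p = 8.04e-06). Between R3 and R2 the change was 0.13, with a 95% interval of -0.19 to 0.46 (adjusted p = 0.697). Of 18 papilla markers, 12 were called higher in R2 than in R1 and 17 in R3 than in R1. So were 13 and 2 of 14 endothelial and 0 and 6 of 9 Schwann and glial markers. Of 10 pericyte and smooth muscle markers, 2 were higher in each. Over all genes these shares were 6.89% and 7.9%. Lower calls in R2 and R3 against R1 were made for 13 and 13 of 13 keratinocyte and 10 and 9 of 12 leukocyte markers. The same held for 6 and 6 of 11 dermal fibroblast, 5 and 6 of 7 melanocyte and 1 and 4 of 5 adipocyte markers. It also held for 3 and 4 of 8 skeletal muscle and 0 and 7 of 14 endothelial markers. Of 10 pericyte and smooth muscle markers 4 and 5 were lower, and of 9 Schwann and glial markers 4 and 0. Over all genes, 6.16% and 10.8% were lower. Of 11 cartilage markers, 0 were called by limma in either comparison with R1 (2 in each at an unadjusted p under 0.05), although 3 were higher in R2 than in R1 without R2 of mouse 5 and 1 was lower in R3 than in R1 without R3 of mouse 5. In R2 of mouse 5, where Col2a1, Col9a1 and Col9a3 were lowest among the 3 R2 arrays, Acan read 10.08. With that array as the lone R2 sample the rise over R1 was 2.25 (adjusted p = 0.0037, range 3.61e-06 to 0.0037 over the alternatives). The parts of papilla cell content, of cartilage RNA and of the other listed cell types in the Acan level were not tested.

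Bcan (brevican) and Ncan (neurocan), known from the matrix of brain, gave no call. The main Bcan probe set read the same value, 5.04, on all 3 R3 arrays, 4.74 to 5.40 in R2 and 4.51 to 5.19 in R1, and passed the background guide on 1 of 9 arrays. Its folds therefore rest on dim signal. The other Bcan probe set, 1441899_x_at, read 5.33 in R3 of mouse 5, the only array on which it passed background. The other 8 arrays reached no more than 4.29. Ncan read 6.15, 5.70 and 8.08 in R3 of mice 2, 4 and 5. It read 5.82 to 6.22 in R2 and 5.10 to 6.39 in R1. R3 of mouse 5 stood alone, and did so on all 3 Ncan probe sets, at 8.08, 7.11 and 5.97, where the other 8 arrays reached no more than 6.39, 5.02 and 5.53. The Ncan change between R3 and R2 was 0.56 (95% interval -0.68 to 1.80, adjusted p = 0.656), and was -0.16 without that array (adjusted p = 0.862, range 0.395 to 1 over the alternatives). The mean of the Schwann and glial markers on that array was 8.13, against 8.04 and 7.88 on the other R3 arrays. Single markers of that list went both ways. Fabp7 read 10.42 there against 9.08 and 9.02, and Erbb3 9.80 against 10.39 and 10.04. The part of glial RNA in the Ncan level was not tested.

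Hapln1, the link protein of cartilage aggregates, was highest in R2. Its main probe set read 5.86, 5.98 and 5.86 in R3 of mice 2, 4 and 5. In R2 it read 7.92, 7.41 and 6.31, and in R1 4.08, 5.70 and 4.25. The gates did not overlap, but R2 and R1 each spread widely, and 2 of the 3 R1 arrays were under background. Hapln1 rose 5.80-fold in R2 over R1 (log2 change 2.54, standard error 0.47, adjusted p = 0.0065). The R1 mean of 4.68 ± 0.89 lies under background, so that fold rests on a dim signal, while R2 averaged 7.21 ± 0.82 (SD, n = 3 each). Between R3 and R2 the change was -1.31 (95% interval -2.36 to -0.26, adjusted p = 0.166), and between R3 and R1 it was 1.23 (0.18 to 2.27, adjusted p = 0.103). Neither was called. Without R1 of mouse 4 the second was (1.74, adjusted p = 0.0191, range 0.0191 to 1 over the alternatives). The other 3 Hapln1 probe sets had the same order of gate means, with the R2 means carried by mice 2 and 4, whose R2 arrays read above those of mouse 5 on each. Of these, 1438020_at and 1426294_at were called in R2 over R1 when probe sets were tested singly (2.01 and 1.95, adjusted p = 0.0206 and 0.034), and 1421633_a_at was not (1.14, adjusted p = 0.246). The first 2 read under background on all R1 arrays, and 1426294_at passed it on 2 of the 9 arrays, so the size of those changes rests on dim signal too.

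The cartilage collagen genes Col2a1, Col9a1 and Col9a3 varied over the R2 arrays beside Hapln1. Col2a1, the main fibril collagen of cartilage, read 5.62, 5.88 and 6.52 in R3 of mice 2, 4 and 5, 7.99, 9.22 and 5.30 in R2, and 5.36, 5.60 and 5.82 in R1. Col9a1, a fibril-associated collagen of cartilage, read 5.67, 6.50 and 5.86 in R3, 9.87, 10.53 and 4.97 in R2, and 6.65, 6.68 and 6.25 in R1. Both were high in R2 of mice 2 and 4 and at background level in R2 of mouse 5, which was also the R2 array with the lowest Hapln1. Col9a3 showed the same split, with 7.46, 8.46 and 5.76 in R2. Other cartilage markers did not. Sox9 read 9.45, 9.53 and 9.14 in R2, below the 10.02, 9.94 and 9.70 of R1. Col9a2 differed less between the R2 arrays, at 6.69, 6.78 and 6.34. Comp and Snorc were highest among the R2 arrays in mouse 5, at 5.31 and 5.07. The mean over 11 cartilage markers was 5.51 to 5.75 in R3, 5.18 to 6.31 in R2 and 5.41 to 5.59 in R1, and Col11a2, Matn1 and Matn3 were under background on all arrays. In R2 over R1, limma called 0 of 11 cartilage markers (3 without R2 of mouse 5). It called 13 of 14 endothelial, 12 of 18 papilla and 2 of 10 pericyte and smooth muscle markers higher. Lower were 13 of 13 keratinocyte, 10 of 12 leukocyte, 6 of 11 dermal fibroblast, 5 of 7 melanocyte and 1 of 5 adipocyte markers. So were 4 of 10 pericyte and smooth muscle, 4 of 9 Schwann and glial and 3 of 8 skeletal muscle markers. Over all genes, 6.89% were called higher and 6.16% lower. The part of these cell types in the Hapln1 level was not tested. With R2 of mouse 5 as the lone R2 array, Hapln1 stood 1.63 above R1 and was not called (adjusted p = 0.185, range 0.00189 to 0.215 over the alternatives). On the main probe set that array, at 6.31, read above all R3 arrays (5.98 at most) and all R1 arrays (5.70 at most). On the other 3 it did not stand above R3: it read 4.60 on 1421633_a_at, where R3 read 5.51 to 5.79 and R1 4.41 to 5.51. It read 4.25 on 1426294_at, where R3 read 4.45 to 4.67 and R1 3.57 to 3.93. On 1438020_at it read 5.79, where R3 read 4.97 to 6.13 and R1 4.60 to 5.07. The higher R2 level of Hapln1 over R3 thus held for mice 2 and 4 on all 4 probe sets, and for mouse 5 on the main one alone.

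**Figure D4:**
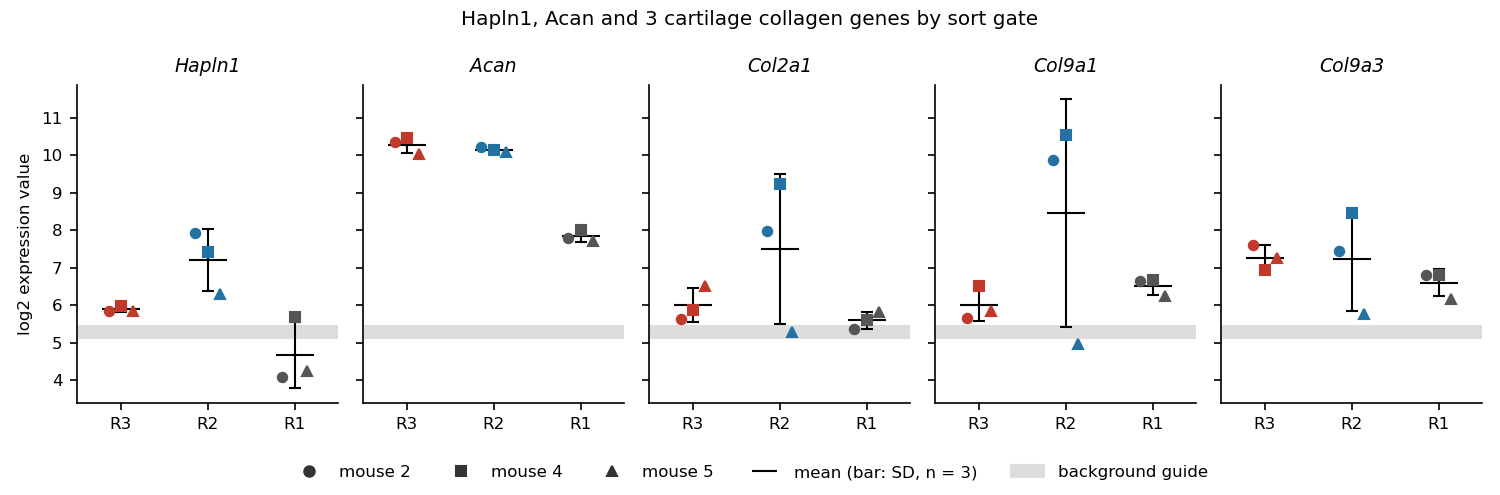
Log2 expression value (vertical axis) of Hapln1, Acan and the cartilage collagen genes Col2a1, Col9a1 and Col9a3 on the R3, R2 and R1 arrays; symbols mark the mouse, lines and bars the mean and SD of 3 arrays, and the grey band the background guide. In R2 the triangle of mouse 5 lies lowest in each panel, far below the other 2 mice for Col2a1, Col9a1 and Col9a3 and within 0.14 of them for Acan.

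Hapln3, a link protein gene expressed outside cartilage and brain, was also highest in R2 and spread less. It read 6.95, 6.98 and 6.95 in R3 of mice 2, 4 and 5. In R2 it read 7.77, 8.14 and 7.48, and in R1 6.32, 6.12 and 6.17. All 3 gates were separate, and R3 of mice 2 and 5 held exactly equal values. The mean was 6.96 ± 0.02 in R3, 7.80 ± 0.33 in R2 and 6.21 ± 0.11 in R1 (SD, n = 3 each). Hapln3 rose 3.01-fold in R2 over R1 (log2 change 1.59, standard error 0.17, adjusted p = 0.000263) and 1.69-fold in R3 over R1 (0.75, adjusted p = 0.0114). It was lower in R3 than in R2 in every mouse, by 0.83, 1.16 and 0.53 in mice 2, 4 and 5, a 1.79-fold fall (log2 change -0.84, adjusted p = 0.0189). That last call was lost in several settings: the adjusted p was 0.0504 to 0.0622 without any single R3 array or without R2 of mouse 2 or 4 (range 0.00877 to 1 over the alternatives). With mouse 5 as the lone R2 array the change was -0.52 (adjusted p = 0.31). Endothelial markers moved with Hapln3 across R3 and R2, with 14 of 14 called lower in R3, and 13 of 14 were called higher in R2 over R1 (7 and 6 with mouse 5 as the lone R2 array). In R3 against R1, 7 of these markers were called lower (4 without R1 of mouse 2 or 4). Another 2 were called higher (1 without R1 of mouse 2, R3 of mouse 4 or any R2 array). Of 18 papilla markers, 6 were called higher in R3 than in R2, 12 in R2 than in R1 and 17 in R3 than in R1. In R3 against R2, 4 of 11 dermal fibroblast, 2 of 10 pericyte and smooth muscle and 2 of 5 adipocyte markers were lower. There, 8 of 9 Schwann and glial markers were higher. Over all genes, 1.97% were called higher and 3.06% lower in R3 than in R2, and 6.89% higher in R2 than in R1. In R3 against R1 the shares were 7.9% higher and 10.8% lower. The part of these cell types in the Hapln3 level was not tested.

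Hapln4, known from brain, read 6.36 to 6.47 in R3, 6.22 to 6.46 in R2 and 6.16 to 6.46 in R1. It stood above background on all 9 arrays, yet its gates overlapped in each comparison. The largest of its 3 changes was 0.08 in R3 over R1, with a 95% interval of -0.20 to 0.37 (adjusted p = 0.718).

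Of the 3 synthase genes, limma called 0 higher in any comparison, also at an unadjusted p under 0.05, and 1 lower, Has1 in R3 against R1. Has1 read 7.64, 7.72 and 8.01 in R3 of mice 2, 4 and 5. In R2 it read 8.17, 8.22 and 8.27, and in R1 8.84, 8.39 and 9.03. The gates formed separate steps, lowest in R3 and highest in R1. The mean was 7.79 ± 0.20 in R3, 8.22 ± 0.05 in R2 and 8.75 ± 0.33 in R1 (SD, n = 3 each). Has1 fell 1.95-fold in R3 against R1 (log2 change -0.96, standard error 0.18, adjusted p = 0.00446). The steps of -0.43 between R3 and R2 (adjusted p = 0.234) and -0.53 between R2 and R1 (adjusted p = 0.0798) were not called. The second was called without R1 of mouse 4 (-0.71, adjusted p = 0.0237) and among genes brighter than the median gene (adjusted p = 0.047), within 0.0237 to 1 over the alternatives. Beside Has1 in R3 against R1, lower calls were made for 6 of 11 dermal fibroblast, 13 of 13 keratinocyte, 9 of 12 leukocyte and 6 of 7 melanocyte markers. The same held for 4 of 5 adipocyte, 7 of 14 endothelial, 5 of 10 pericyte and smooth muscle and 4 of 8 skeletal muscle markers. Higher calls were made for 17 of 18 papilla, 6 of 9 Schwann and glial, 2 endothelial and 2 pericyte and smooth muscle markers. Over all genes, 10.8% were called lower and 7.9% higher. The part of these cell types in the Has1 level was not tested.

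Has2, the main synthase of embryonic mesenchyme, was not called on its main probe set in any comparison. It read 8.71, 8.54 and 8.71 in R3, 8.52, 8.64 and 8.42 in R2, and 8.71, 9.04 and 8.96 in R1 of mice 2, 4 and 5. R2 lay below all R1 arrays, and R3 overlapped both. The change was -0.38 in R2 against R1 (95% interval -0.67 to -0.08, adjusted p = 0.0941) and -0.25 in R3 against R1 (-0.54 to 0.05, adjusted p = 0.238). The dimmer Has2 probe set, 1418678_at, read 6.32 to 6.57 in R3, 5.78 to 6.26 in R2 and 6.15 to 7.23 in R1, a change of -0.86 in R2 against R1 when tested singly (adjusted p = 0.0767). The mean of both probe sets was called in R2 against R1 (-0.62, adjusted p = 0.0442, within 0.0442 to 1 over the alternatives). Has3 read 3.22 to 3.51 in R3, 2.99 to 3.72 in R2 and 3.62 to 4.00 in R1, under background on all 9 arrays, so its level could not be followed.

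The neighbouring genes can be set side by side. At Acan and Hapln3, both genes rose in R2 and in R3 over R1, but Hapln3 was lower in R3 than in R2 where Acan was not called. At Vcan and Hapln1, Vcan rose in R3 over R2 while the main Hapln1 probe set read lower on all R3 arrays without a call, and its other 3 probe sets overlapped between R3 and R2. Over the 9 arrays, Pearson's r was 0.80 between Acan and Hapln3, 0.18 between Vcan and Hapln1 and 0.88 between Hapln1 and Hapln3, and -0.89 between Vcan and Has1. These correlations describe arrays that share 3 gates and 3 mice.

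Among 9091 other genes brighter than the median gene, those most like Vcan over the 9 arrays were Hhip (r = 0.98), a membrane protein that binds hedgehog ligands, the receptor phosphatase gene Ptprd (0.98), Taf4b (0.98), the sterol demethylase gene Cyp51 (0.98) and Snap91 (0.97). Hhip averaged 11.58 ± 0.36 in R3, 9.76 ± 0.30 in R2 and 9.41 ± 0.20 in R1 (SD, n = 3 each). Snap91 averaged 9.28 ± 0.09, 6.31 ± 0.43 and 5.76 ± 0.13 in R3, R2 and R1. Those most like Acan were Inhba, an activin subunit gene, Lama2, a laminin chain gene, and Col11a1, a fibril collagen gene, each at r = 0.99. Hhip and Inhba also belong to the 18 papilla markers counted above. Col11a1 averaged 10.88 ± 0.04 in R3, 10.66 ± 0.15 in R2 and 7.87 ± 0.23 in R1. Those most like Hapln1 were Mgll (0.97), Pdhb (0.96) and Cdc5l (0.95). Pearson's r takes no account of the size of a change. The gate means of Hapln1 spanned 2.54. Mgll averaged 7.83, 8.35 and 7.18 in R3, R2 and R1, Pdhb 10.70, 10.83 and 10.51, and Cdc5l 9.84, 10.07 and 9.67.

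The proteases that cut hyalectans include the largest change among the pathway genes, that of Adamts20. Of 6 ADAMTS genes, 2 were higher in R2 than in R1, 2 were higher and 1 lower in R3 than in R1, and 1 was higher and 2 lower in R3 than in R2. Their median log2 changes were 0.48 in R2 against R1, 0.09 in R3 against R1 and -0.70 in R3 against R2. Over all genes, 6.89% were called higher in R2 than in R1, and 7.9% higher and 10.8% lower in R3 than in R1. In R3 against R2 the shares were 1.97% higher and 3.06% lower. Adamts20, a versican-cleaving protease needed for normal coat pigmentation in mice, read 10.07, 10.25 and 11.05 in R3 of mice 2, 4 and 5. In R2 it read 11.07, 11.26 and 11.46, and in R1 7.12, 7.38 and 7.54. The CD133+ gates were both far above R1, 8.65-fold for R3 (adjusted p = 3.69e-05) and 15.1-fold for R2 (adjusted p = 1.79e-05). Adamts15 read 9.70 to 9.79 in R3, 10.45 to 10.71 in R2 and 7.79 to 8.16 in R1. It rose 6.33-fold in R2 over R1 (adjusted p = 6.81e-06) and 3.50-fold in R3 over R1 (adjusted p = 2.78e-05), and stood 1.81-fold below R2 in R3 (adjusted p = 0.00593). Adamts9, another versican-cleaving protease, stood 1.84-fold below R2 in R3 (adjusted p = 0.00411) and 1.45-fold below R1 (adjusted p = 0.0182). The last call was lost without R3 or R1 of mouse 2 or R1 of mouse 5, at an adjusted p of 0.0544 to 0.0637. Adamts5, the main aggrecan-cleaving protease of mouse cartilage, stood 1.57-fold above R2 in R3 (adjusted p = 0.0446), a call lost without any one array but R2 of mouse 2 (adjusted p = 0.0646 to 0.12). Adamts1 (12.71 to 12.84 in R3, 12.68 to 12.73 in R2, 12.73 to 12.91 in R1) and Adamts4 were not called. Adamts20 was called lower in R3 than R2 without R3 of mouse 5 (log2 change -1.10 against -0.81 with it, adjusted p = 0.0108), and Adamts5 lower in R2 than in R1 without R2 of mouse 2 (-0.63, adjusted p = 0.0298). With mouse 5 as the lone R2 array, 2 of the 6 were still higher in R2 than in R1, and 0 were called in R3 against R2.

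**Figure D5:**
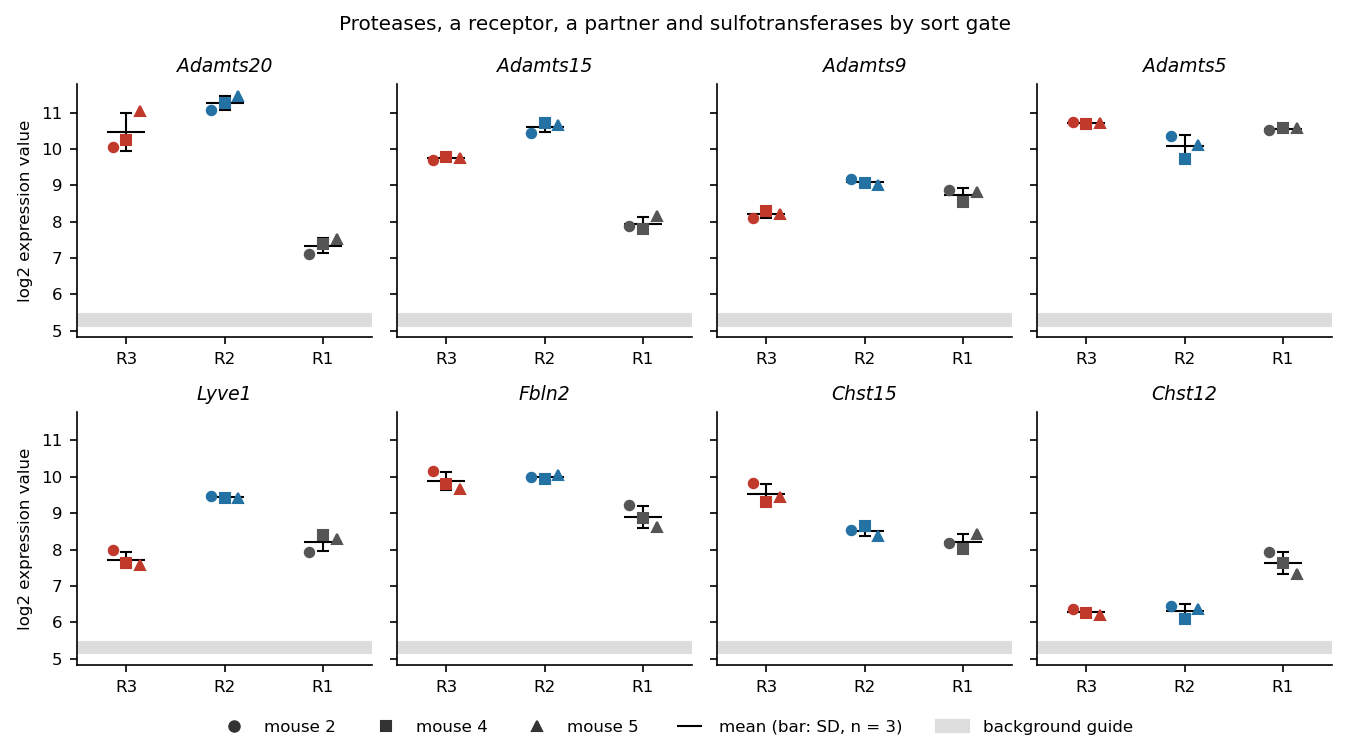
Log2 expression value (vertical axis) of 4 ADAMTS protease genes, the hyaluronan receptor gene Lyve1, the fibulin gene Fbln2 and the sulfotransferase genes Chst15 and Chst12 on the R3, R2 and R1 arrays; symbols mark the mouse, lines and bars the mean and SD of 3 arrays, and the grey band the background guide. Adamts20 and Adamts15 lie far above R1 in both CD133+ gates, Lyve1 is highest in R2, and Chst15 and Chst12 run in opposite directions between R3 and R1.

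Enzymes that build chondroitin sulfate chains moved both ways between R3 and R1. Of 22 measured, 1 was higher in R3 than in R2, 4 were lower in R2 than in R1 (Chst12, Fam20b, Csgalnact2 and B3galt6), and 3 were higher and 7 lower in R3 than in R1. The median changes were -0.02, -0.21 and -0.14 in that order. Over all genes, 1.97% were called higher in R3 than in R2 and 6.16% lower in R2 than in R1. In R3 against R1 the shares were 7.9% higher and 10.8% lower. Chst15, which adds a further sulfate to chondroitin 4-sulfate, read 9.83, 9.31 and 9.45 in R3 of mice 2, 4 and 5, 8.54, 8.66 and 8.37 in R2, and 8.19, 8.00 and 8.43 in R1. It rose 2.01-fold in R3 over R2 (adjusted p = 0.00907) and 2.50-fold in R3 over R1 (adjusted p = 0.000718), and R3 lay above all other arrays. Chsy3, a chain polymerase, rose 2.53-fold in R3 over R1 (adjusted p = 0.00841). Chst12, a chondroitin 4-sulfotransferase, was 2.56-fold lower in R3 than in R1 (adjusted p = 0.000569) and 2.50-fold lower in R2 than in R1 (adjusted p = 0.000931). Csgalnact2, which starts the chain, was 2.03-fold lower in R3 than in R1 (adjusted p = 0.00654). The lower count in R3 against R1 dropped to 4 without R1 of mouse 2 or R3 of mouse 5 and to 3 without R1 or R3 of mouse 4. In R2 against R1 it dropped to 1 without R1 of mouse 4 or R2 of mouse 2, and to 2 without R2 of mouse 4. Without R3 of mouse 5, 2 were higher in R3 than in R2 and 1 was higher in R2 than in R1. With mouse 5 as the lone R2 array, 0 were higher in R3 than in R2 and 1 was lower in R2 than in R1.

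Binding partners of the hyalectans split, with Fbln2 higher and Tnc lower in both CD133+ gates than in R1. Of 5 measured, 1 was higher and 1 lower in R2 than in R1, and 1 was higher and 3 lower in R3 than in R1. In R3 against R2, 0 were called by limma (1 at an unadjusted p under 0.05). Over all genes, 6.89% were called higher and 6.16% lower in R2 than in R1. In R3 against R1 the shares were 7.9% higher and 10.8% lower. Fbln2, a fibulin that binds versican, rose 2.13-fold in R2 over R1 (adjusted p = 0.00366) and 1.97-fold in R3 over R1 (adjusted p = 0.00459). Tnc (tenascin C) was 1.51-fold lower in R2 and 1.54-fold lower in R3 than in R1 (adjusted p = 0.00863 and 0.00476). Fbln1 was 3.02-fold lower in R3 than in R1 (adjusted p = 0.00659). Fbn2, a fibrillin, was also lower in R3 than in R1. In R2 against R1, 2 were lower without R3 of mouse 2 or 5, and 0 were called with mouse 5 as the lone R2 array.

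Among 8 hyaluronan receptor genes, Lyve1, the receptor of lymphatic endothelium, stood out in R2. It read 7.97, 7.62 and 7.56 in R3 of mice 2, 4 and 5, 9.47, 9.43 and 9.41 in R2, and 7.92, 8.39 and 8.28 in R1. R2 was above every other array. Lyve1 stood 3.29-fold below R2 in R3 (adjusted p = 0.000277), and it rose 2.36-fold in R2 over R1 (adjusted p = 0.000948). The endothelial markers moved the same way, and their part in the Lyve1 level was not tested. The other calls were Stab1, higher in R2 than in R1 (1.84-fold, adjusted p = 0.027), and Hmmr, lower in R3 than in R1 (1.63-fold, adjusted p = 0.0257). Over all genes, 3.06% were called lower in R3 than in R2, 6.89% higher in R2 than in R1 and 10.8% lower in R3 than in R1. Stab1 was lost without R2 of mouse 2 or 4 or R1 of mouse 4 or 5 (adjusted p = 0.0624 to 0.0855), and Hmmr without R3 of mouse 2 or 5 or R1 of mouse 2 or 4 (adjusted p = 0.0645 to 0.0877). Without R2 of mouse 5, Stab1 was called in R3 against R2 too (-1.04, adjusted p = 0.0235), and without R3 of mouse 2 or 4 the count lower in R3 than in R1 was 2. With mouse 5 as the lone R2 array, 1 receptor was lower in R3 than in R2, 1 was higher in R2 than in R1 and 0 were called in R3 against R1. Cd44, the most widely expressed receptor, averaged 11.15 ± 0.21 in R3, 11.15 ± 0.29 in R2 and 11.11 ± 0.29 in R1 (SD, n = 3 each).

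Of 9 cross-linker genes, Ptx3 (pentraxin 3) was 1.76-fold lower in R2 than in R1 (adjusted p = 0.0116). In R3 against R1, Ptx3 was 2.09-fold lower (adjusted p = 0.00198) and Itih5, an inter-alpha-inhibitor heavy chain gene, was 2.78-fold lower (adjusted p = 0.00321). In R3 against R2, 0 of the 9 were called by limma (2 at an unadjusted p under 0.05), and 1 was lower without R3 of mouse 5. Hapln2, the remaining link protein gene, read 4.99 to 5.26 in R3, 5.00 to 5.11 in R2 and 4.61 to 5.08 in R1, near or under background. Of 7 measured breakdown genes, Cemip2, a cell-surface hyaluronidase, was 1.54-fold higher in R2 than in R1 (adjusted p = 0.0231) and 1.62-fold higher in R3 than in R1 (adjusted p = 0.0105). The first call was lost without any single R2 array or without R1 of mouse 4 or 5 (adjusted p = 0.0507 to 0.0724). The lysosomal enzymes Hexa (R2 against R1, 1.72-fold, adjusted p = 0.0394) and Gusb (R3 against R1, 1.62-fold, adjusted p = 0.0249) were lower. Hexa lost its call without R1 of mouse 2 or 4, R3 of mouse 4 or any R2 array (adjusted p = 0.0582 to 0.123), and Gusb without R1 of mouse 2 or 5 or R3 of mouse 4 or 5 (adjusted p = 0.0683 to 0.0808). Without R3 of mouse 2, 2 breakdown genes were lower in R3 than in R1, and in R3 against R2 limma called 0, also at an unadjusted p under 0.05. Of 8 genes for the sugar nucleotide precursors, 1 was called lower in each comparison with R1, and 0 were called in R3 against R2 (1 at an unadjusted p under 0.05). For these 3 lists the shares over all genes were 6.16% lower and 6.89% higher in R2 than in R1. In R3 against R1 they were 10.8% lower and 7.9% higher. Gfpt2 was 1.52-fold lower in R2 (adjusted p = 0.0439, lost without any one array but R2 of mouse 4, at 0.0511 to 0.13). Uxs1 was 1.59-fold lower in R3 (adjusted p = 0.0249, lost without R1 or R3 of mouse 4, R1 of mouse 2 or R3 of mouse 5, at 0.0513 to 0.079). With mouse 5 as the lone R2 array, 0 breakdown genes and 0 precursor genes were called in R2 against R1, and 1 cross-linker gene was lower. Ugdh, which makes the glucuronic acid donor for hyaluronan, read 10.29 to 10.69 in R3, 10.37 to 10.69 in R2 and 10.50 to 10.89 in R1.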

How the data were processed

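RNA of 3 gates from 3 mice was amplified (WT-Ovation Pico), biotin-labelled and hybridised to 1-colour arrays, per the labels' protocols. The authors deposited one log2 intensity summary for each probe set and array, which RMA produced per the submitters' processing notes. No source used here gives the RMA version or says that the 9 arrays were normalized jointly. RMA can return exactly equal values for different arrays. RMA and amplification can compress folds, and RMA values carry no detection call. The number of arrays limits the precision.

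Of 45101 probe sets, 34945 had 1 gene symbol in the platform annotation, 932 had several (not named) and 9160 had none. The 64 control probe sets were left out. Of the named ones, 34741 were found in the RefSeq table (GRCm38.p6), and 0 symbols changed. Gates were compared with limma 3.58.1 in R 4.3.3 over all 9 arrays and 18193 genes, with 1 coefficient per gate, no mouse block and Benjamini-Hochberg adjustment per comparison, and a call at an adjusted p under 0.05. The test was run on simulated data for R3 against R2, drawn with independent normal noise and no mouse effect. That setting meets the model by design, so it cannot show how the test fares with paired or uneven arrays. Arrays that share a number are from 1 animal and are therefore paired. Their deviations from the gate means correlated at 0.01 to 0.18 within a mouse and -0.16 to 0.04 between mice.

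Named were all 10 genes, up to 4 called genes of lowest p per pathway list and comparison (the text gives the leading ones), and the genes most like Vcan, Acan and Hapln1 over the arrays. Ugdh, Cd44, Adamts1, Adamts4, Hapln2, the promoter motifs and the cartilage collagens as single genes were added after values were seen. The members, lists and tests were chosen with earlier results of these data known. The alternatives tried were a mouse block (fixed, then random), each array left out, the 6 arrays of a comparison alone, median centring, quantile normalization again, other uses of probe sets, genes above the median gene, a trend and robust variance, and a 2-fold minimum. The lone R2 array of mouse 5 was added after seeing the data. Tables were made with pandas 2.3.3 and numpy 2.4.6 under Python 3.11.15, and plots with matplotlib 3.10.9.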

Additional observations from a re-analysis of the deposited data

How the results depend on the processing

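Of the called members, Vcan in R3 over R2, Acan, Hapln1 and Hapln3 in R2 over R1, and Acan, Vcan, Hapln3 and Has1 in R3 against R1 stayed called when any single array was left out, while Hapln3 in R3 against R2 did not. The number of members called without 1 array was 1 to 2 in R3 against R2, 3 to 4 in R2 against R1 and 4 to 5 in R3 against R1. With the mouse as a fixed or random replicate block the counts stayed at 2, 3 and 4, and the block changed no call of a member. With a 2-fold minimum they were 0, 1 and 1. With the mean of all probe sets 5 members were called in R2 against R1. With R2 of mouse 5 as the lone R2 array 0 were called in R3 against R2, a setting with fewer samples. Hapln1 was not tested among genes above the median gene, since its mean is lower. Uncalled members changed sign as follows, and the cause was not tested. Leaving out 1 array, the Bcan change ran from -0.059 to 0.27 in R3 against R2, -0.13 to 0.23 in R2 against R1 and -0.047 to 0.29 in R3 against R1. That of Ncan ran from -0.16 to 1.03 in R3 against R2 and -0.11 to 0.53 in R2 against R1. That of Hapln4 ran from -0.015 to 0.11 in R3 against R2 and -0.049 to 0.10 in R2 against R1, and that of Has3 from -0.21 to 0.15 in R3 against R2. Bcan in R3 against R2 was -0.0038 after quantile normalization again and -0.36 with the lone R2 array, and Hapln4 in R2 against R1 was -0.10 with the lone R2 array. Of all genes tested, 915 were called in R3 against R2, but 582 without R2 of mouse 4, 592 without R3 of mouse 4, 596 without R2 of mouse 2 and 242 with the lone R2 array. In R2 against R1 the 2375 called became 1554 without R2 of mouse 4 and 772 with the lone R2 array. With a 2-fold minimum 108, 246 and 379 genes were called in R3 against R2, R2 against R1 and R3 against R1, where 3406 of the last were called otherwise. Signal over background limits Bcan, Has3 and the R1 level of Hapln1.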
